A study of Mus musculus with 75 samples.

Results

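The kidney opposite an obstructed one keeps its ureter open while it shares the blood, the drugs and the genotype of the animal. RNA was sequenced from such contralateral (CL) kidneys 3 days after unilateral ureteral obstruction (UUO), the ligation of 1 ureter, and the effects of an antibody and of 2 induced gene deletions on the CL kidney were compared within 3 arms of the study. The 36 CL libraries among the 75 libraries of the series, as their labels give them, made up the comparison, and the 39 libraries of obstructed kidneys entered only 1 of the alternative models. All mice were adult, of both sexes per the study's methods, and received carprofen around surgery, and apart from the sham-operated mice named with the third arm all had 1 ureter ligated. In the first arm, 7 kidneys of mice injected with ABTAA, an antibody that binds angiopoietin 2 and activates the receptor TIE2, were set against 8 kidneys of mice given the same dose of human IgG Fc. These were wild-type mice, either C57BL6/J or from the breeding of the knockouts. In the second arm, 6 kidneys of Veptp KO mice, in which floxed Veptp had been removed from endothelial cells by a tamoxifen-inducible Cre under the Cdh5 promoter, were set against 7 kidneys of Veptp WT mice, which carried the same Cre and 1 floxed allele but had not been given tamoxifen. Deletion and tamoxifen therefore cannot be told apart in that arm. In the third arm, 4 kidneys labelled Pdgfb KO came from mice with floxed Pdgfb and a Cre active in the whole body, induced 1 week before the experiment, and 4 kidneys labelled Pdgfb WT came from littermates without Cre. Among the latter were kidneys of a pair of sham-operated mice, which the labels do not mark. Mice of the knockout breeding were on a mixed background.

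TIE2, the product of Tek, is a receptor tyrosine kinase of endothelial cells that keeps vessels quiescent when angiopoietin 1 binds it. Angiopoietin 2 blocks or weakens that signal in many settings, and the phosphatase VE-PTP, the product of Ptprb (called Veptp in the study), removes phosphate from TIE2, so that loss of VE-PTP can raise TIE2 activity, as ABTAA can where angiopoietin 2 is present. PDGFB is made by endothelial and injured tubular cells and acts through PDGFRB on pericytes and fibroblasts. A CL kidney takes over filtration from the obstructed one and is the usual internal control of the UUO model, which makes any effect of a drug or a genotype on it a matter of interest.

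The CL libraries held between 263848 and 1652049 counted reads, with a median of 787870 (272484 to 1237505 in IgG, 499269 to 1191265 in ABTAA, 263848 to 1652049 in Veptp WT, 278084 to 1236235 in Veptp KO, 731092 to 1042954 in Pdgfb WT and 444475 to 1017811 in Pdgfb KO). The tissue matched its label, since the 13 proximal tubule markers examined were all testable in each arm and summed to at least 9460 normalised read counts scaled to library size (CPM) in every library, while 9 adrenal markers summed to at most 22.2 CPM. Library names came in 2 forms, 21 plain (such as B4) and 15 with a low line (such as P_1), and the forms differed strongly: in the model with both terms, 2308 of 8578 genes of the ABTAA arm and 4780 of 10316 genes of the Veptp arm differed between forms at an adjusted p under 0.05 (edgeR quasi-likelihood test). The ribosomal RNA-overlapping genes Gm42418 and AY036118 took 0.391% to 0.778% of the reads of the Veptp libraries with low-line names and 9.18% to 15.8% of those with plain names. The form was therefore a term of the model in both arms, and what the forms stand for is not given in the sources used here. In 9 of the 36 libraries the X-inactivation transcript Xist and the Y-linked genes Ddx3y, Eif2s3y, Kdm5d and Uty, summed, both reached 10 counts, a combination that 1 mouse is not known to give. 3 of these were ABTAA, 2 Veptp KO, 2 Pdgfb WT, 1 IgG and 1 Veptp WT, and counts are therefore also given without them. Throughout, more cells of a type and more RNA per cell cannot be told apart in bulk tissue, a fold change is on the log2 scale with its standard error, and a single mouse is 1 library.

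The deleted genes were examined first. Ptprb (chromosome 10, 116275502 to 116389538 in mm10) lay at 26.9 to 83.3 CPM (median 58.4) in 7 Veptp WT kidneys and at 26.3 to 44.5 CPM (median 32.0) in 6 Veptp KO kidneys. The groups overlapped: every Veptp KO library lay at or below 44.5 CPM, but so did 3 of the 4 Veptp WT libraries with low-line names, at 35.3, 29.9 and 26.9 CPM. Of the low-line names, G_3 and G_4 are labelled Veptp KO and G_7 and G_8 Veptp WT. The obstructed libraries of the same numbers, H_3, H_4, H_7 and H_8, carry the opposite genotype label. Whether a shared number means the same mouse is not given, and the labels were used as they stand throughout. Among plain names, Veptp WT libraries held 63.2, 66.8 and 83.3 CPM and Veptp KO libraries 26.3 and 44.5 CPM, with no overlap. The log2 fold change was -0.44 ± 0.21 with a 95% interval of -0.89 to -0.0011, an unadjusted p of 0.0495 and an adjusted p of 0.875 (edgeR). An exact 2-sided permutation test on log2(CPM + 1) gave a difference of -0.56 and p = 0.067, where 0.000583 is the smallest value the 13 libraries allow. Within low-line names alone the log2 fold change was -0.27 ± 0.25, and within plain names -0.95 ± 0.37. Of other endothelial transcripts, 4 that did not reach an unadjusted p of 0.05 had wide errors, with log2 fold changes of 0.029 ± 0.31 for Tek, 0.13 ± 0.35 for the junctional cadherin Cdh5, 0.17 ± 0.28 for Pecam1 and -0.18 ± 0.35 for the co-receptor Tie1.

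Pdgfb (chromosome 15, 79995865 to 80024614 in mm10) was not lower in the libraries labelled Pdgfb KO. The 4 Pdgfb WT libraries held 4.10, 9.02, 6.87 and 18.3 CPM and the 4 libraries labelled Pdgfb KO 15.3, 16.3, 23.4 and 15.8 CPM, from between 4 and 19 counted reads each. All 4 of the latter lay above 3 of the 4 Pdgfb WT libraries. The log2 fold change was 0.79 ± 0.39, in the direction opposite to a deletion, with a 95% interval of -0.037 to 1.62 and an adjusted p of 1 (edgeR). By the exact 2-sided permutation test the difference of 0.97 on log2(CPM + 1) had p = 0.114, where 4 against 4 libraries cannot go below 0.0286. Which exon the deletion removes is not given in the sources used here, and reads from the rest of the transcript may still be counted. The few reads counted here therefore neither check nor refute the deletion, and these libraries are called labelled Pdgfb KO wherever a direction is given. The study measured Pdgfb separately in obstructed and contralateral kidneys of this line, and that measurement is not reported here. Their names carry the numbers 10 and 11 and those of the Pdgfb WT libraries 4 and 5, so that name number and genotype cannot be told apart.

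**Figure D1:**
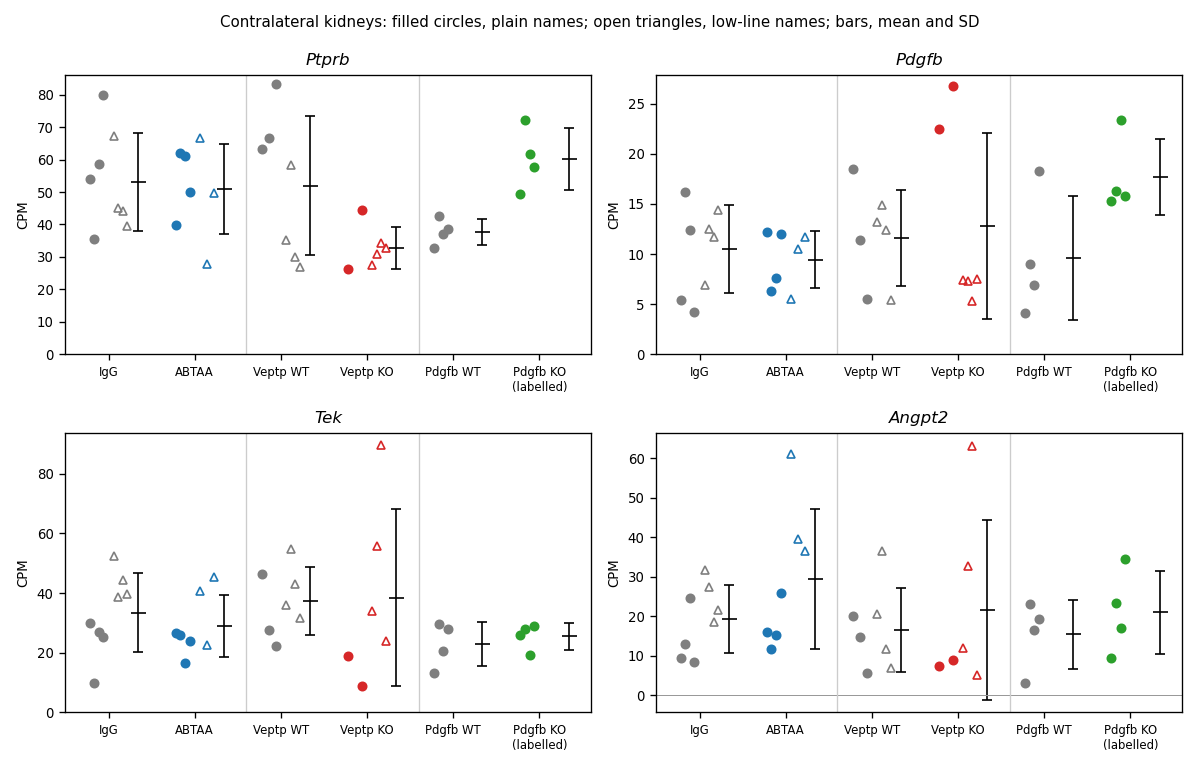
CPM of Ptprb, Pdgfb, Tek and Angpt2 (vertical axes) in each of the 36 CL libraries by group (horizontal axis), with filled circles for plain names, open triangles for low-line names, and the mean and SD of each group beside its points. Ptprb runs from 26.9 to 83.3 CPM in Veptp WT and from 26.3 to 44.5 CPM in Veptp KO, the 4 libraries labelled Pdgfb KO lie above the 4 Pdgfb WT libraries for Ptprb, and Pdgfb is not lower in them.

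No gene passed an adjusted p of 0.05 in any of the 3 comparisons by the edgeR quasi-likelihood test. ABTAA against IgG tested 8578 genes with a lowest adjusted p of 0.651, and 465 of them, 202 higher and 263 lower, had an unadjusted p under 0.05, which is 5.42% of the genes tested. Veptp KO against WT tested 10316 genes with a lowest adjusted p of 0.437, and 578 genes (5.6%), 319 higher and 259 lower, had an unadjusted p under 0.05. For the libraries labelled Pdgfb KO the numbers were 9126 genes, a lowest adjusted p of 1, and 242 genes (2.65%) at an unadjusted p under 0.05, of which 129 were higher. Called genes were thus 0% of those tested in each comparison, and the shares at the unadjusted threshold were near or below the share that the threshold itself allows. DESeq2 on the same genes and terms called 0, 7 and 0 genes, with 387, 490 and 83 at an unadjusted p under 0.05, and the exact test of edgeR, which the study used and which has no term for the form, called 0 in each, with 208, 152 and 196 at that unadjusted threshold. The 7 genes of the Veptp arm that DESeq2 called, all higher in Veptp KO, were Xist, Actg1, Clu, Spp1, Umod, mt-Co1 and Slc39a5. The calls also depended on the filter: with every gene of at least 1 count admitted, edgeR called 13, 58 and 8 genes, which in the Veptp arm included Cyp4a12b, Xist, Spp1, Slc7a12, Prlr, Clu, Gbp3, Hbb-bt, Hba-a2, Gsta4, C3, Hbb-bs, Slc39a5, Uty, Ihh and Ubtd1 (adjusted p 2.3e-11 to 0.0411), in the ABTAA arm Pdk4, Slco1a1 and Cyp2j13, and in the Pdgfb arm Rnase4, Cyp4b1 and Cyp2e1.

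The width of the intervals says what such results bound. The biological coefficient of variation was 19.1% for ABTAA, 21.6% for Veptp and 17.8% for Pdgfb, and the median half-width of a gene's 95% interval was 0.379, 0.437 and 0.488 on the log2 scale. In the ABTAA arm 8287 genes (96.6% of those tested) had an interval inside -1 to 1. The corresponding numbers were 9192 genes (89.1%) in the Veptp arm and 7996 genes (87.6%) in the Pdgfb arm. An interval of 1 gene covers only that gene, and the remaining 291, 1124 and 1130 genes were measured too loosely for a bound of that size. Median log2 fold changes over all genes were -0.0049, -9.7e-05 and -0.0024, and 3, 49 and 15 genes exceeded 1 in size. Groups did not overlap for 1 gene for ABTAA (0.0117%), 8 genes for Veptp (0.0775%) and 183 genes for Pdgfb (2.01%), where groups of 4 separate more easily.

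**Figure D2:**
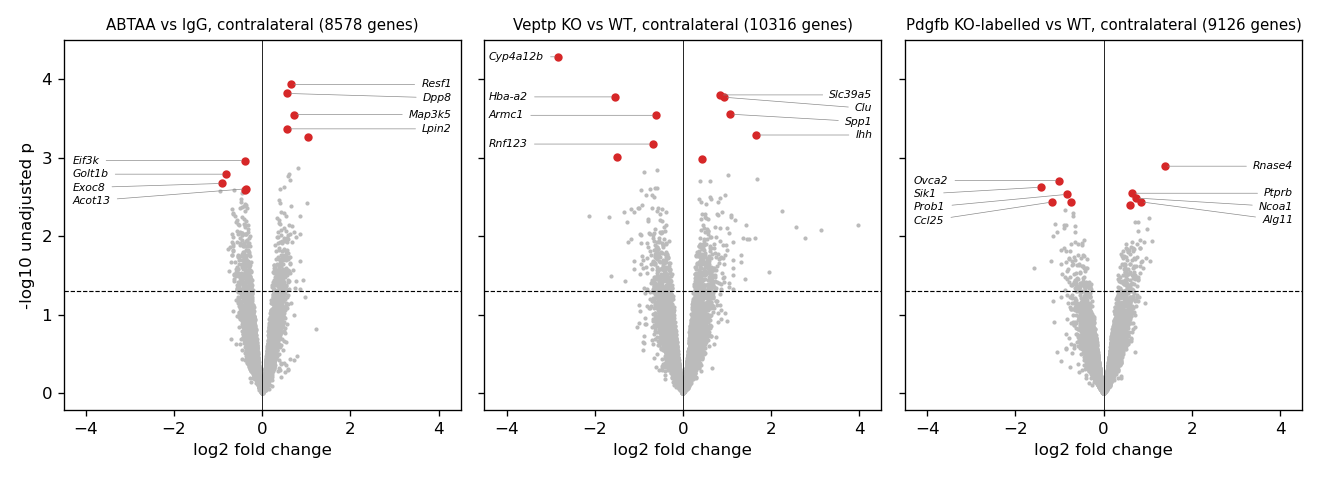
Log2 fold change (horizontal axis) against -log10 of the unadjusted p (vertical axis) for every gene tested in the 3 CL comparisons, with the 5 lowest unadjusted p in each direction in red, the 4 lowest of them named, and a dashed line at an unadjusted p of 0.05. Lowest adjusted p were 0.651, 0.437 and 1, so no point passed the adjusted threshold, and the spread of fold changes is widest in the Veptp arm.

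ABTAA against IgG asked whether the antibody, which needs angiopoietin 2 to activate TIE2, changes the unobstructed kidney. None of the genes of the targeted pathway passed. Of the 11 genes of the angiopoietin and TIE2 list 7 were testable, 3 with a higher and 4 with a lower mean, none at an unadjusted p under 0.05, and their median log2 fold change was -0.081. Angpt2, the ligand the antibody binds, lay at 8.41 to 31.7 CPM (median 20.1) in 8 IgG kidneys and at 11.8 to 61.1 CPM (median 26.0) in 7 ABTAA kidneys. Its 3 highest values, 61.1, 39.6 and 36.6 CPM, were those of the ABTAA libraries with low-line names, but the groups overlapped, and the log2 fold change was 0.46 ± 0.24 with an unadjusted p of 0.0672. Tek itself ran from 9.73 to 52.5 CPM (median 34.2) in IgG and from 16.5 to 45.5 CPM (median 25.9) in ABTAA, with overlapping groups, a log2 fold change of -0.18 ± 0.20 and a 95% interval of -0.58 to 0.23. For Tie1 the log2 fold change was -0.46 ± 0.31, for the ligand Angpt1 0.23 ± 0.27, and for Ptprb -0.081 ± 0.19. Among 6 testable genes of VEGF signalling the median was -0.11 and none reached the unadjusted threshold, and among 11 testable endothelial markers it was -0.031, again with none.

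The genes with the lowest unadjusted p in the ABTAA arm did not pass after adjustment and are given as values. Resf1, a regulator of retroelement silencing, lay at 23.0 to 50.4 CPM (median 29.9) in IgG and at 40.0 to 75.2 CPM (median 43.2) in ABTAA, a log2 fold change of 0.65 ± 0.14 (unadjusted p 0.000117, adjusted p 0.651 by edgeR). Within each name form, ABTAA libraries lay above IgG libraries without overlap, at 40.0 to 43.2 against 23.0 to 29.4 CPM in plain names and 57.4 to 75.2 against 30.3 to 50.4 CPM in low-line names. The peptidase gene Dpp8 gave 0.57 ± 0.13 and the same separation within forms, at 55.8 to 64.8 against 32.5 to 40.2 and 71.2 to 77.8 against 44.3 to 61.2 CPM. Both genes were picked for a low unadjusted p in a model with the form as a term. Their separation within forms is therefore no further support for a difference. Values for the stress kinase Map3k5 (0.71 ± 0.17), the phosphatidate phosphatase Lpin2 (0.56 ± 0.14) and the Golgi protein gene Tmem87a (1.04 ± 0.26) were also higher in mean, with groups that overlapped. In the other direction stood the translation initiation factor subunit Eif3k (-0.40 ± 0.11), the vesicle transport genes Golt1b (-0.81 ± 0.23) and Exoc8 (-0.90 ± 0.26), the mitochondrial thioesterase Acot13 (-0.37 ± 0.11) and the coactivator Sub1 (-0.40 ± 0.12), with adjusted p of 0.895 for each of these 5.

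Among the gene lists, the PDGF ligands and receptors stood lower in mean in ABTAA kidneys throughout, with 5 of 5 testable genes below 0, a median of -0.48 and 2 at an unadjusted p under 0.05, beside 5.42% of all genes. The receptor gene Pdgfra, a marker of fibroblasts, lay at 6.49 to 37.8 CPM (median 22.7) in IgG and 8.89 to 26.4 CPM (median 14.1) in ABTAA (-0.55 ± 0.24, unadjusted p 0.0298). Its ligand gene Pdgfa lay at 2.33 to 25.9 CPM (median 17.1) and 5.55 to 17.8 CPM (median 10.6) (-0.64 ± 0.28, unadjusted p 0.0315), and the pericyte receptor gene Pdgfrb gave -0.43 ± 0.27. The mural and mesenchymal markers, which include both receptor genes, did not share the direction, with 3 of 7 testable genes higher and 4 lower in mean and a median of -0.065. All groups overlapped, the 5 genes had adjusted p of 0.895 to 0.945, and without the 4 libraries that held both Xist and Y-linked reads the median was -0.53 with none at the unadjusted threshold. Leaving out 1 library left between 0 and 4 of the testable genes at that threshold, 0 without the IgG library B6, B7 or P_1 and 4 without the ABTAA library F6. Of the study's matrix panel 11 of 14 genes were testable, 9 with a lower mean, with a median of -0.21: fibronectin (Fn1) gave -0.56 ± 0.23 and the collagen gene Col1a2 -0.45 ± 0.20, at unadjusted p of 0.0261 and 0.0342. The study displayed that panel for these samples, and its direction is not taken as independent evidence.

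Genes of fatty acid use that PPARA controls and fasting induces pointed the other way, with 12 of 12 testable genes higher in mean but a median of only 0.084. Pdk4, which spares glucose by inhibiting pyruvate dehydrogenase, lay at 6.77 to 59.4 CPM (median 16.6) in IgG and 11.4 to 154 CPM (median 25.4) in ABTAA (0.86 ± 0.30, unadjusted p 0.00948). The lipase inhibitor Angptl4 gave 0.43 ± 0.19, with an unadjusted p of 0.0359. One library, N_9, held the highest value of Pdk4 (154 CPM) and of Angptl4 (137 CPM) in the arm, and also of the complement gene C3 (165 CPM). Without it the fold changes were 0.45 for Pdk4, 0.37 for Angptl4 and 0.24 for C3, at unadjusted p of 0.118, 0.0863 and 0.437. With N_9 kept, C3 gave 0.74 ± 0.35. Proximal tubule markers had a median of -0.11, 10 of 13 below 0, with the glucose transporter Slc5a2 at -0.36 ± 0.14 and the inositol oxygenase Miox at -0.33 ± 0.14, and 19 of 23 complex I subunits had a lower mean (median -0.13), Ndufs7 at -0.28 ± 0.10. The heat shock gene Hsph1 gave 0.37 ± 0.13. None of the testable tubular injury (7 of 15), circadian (10 of 15), interferon (5 of 12), immediate early (4 of 12), antioxidant (8 of 8), hypoxia (7 of 11), cell cycle (4 of 11) or mitochondrial DNA genes (13 of 13) reached an unadjusted p of 0.05 in this arm, and the other members were too low to test.

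Veptp KO against WT asked whether loss of the phosphatase from endothelium changes the unobstructed kidney, and this arm held the largest differences of the 3 without any gene passing. At the head of the list stood Cyp4a12b, a fatty acid hydroxylase that male kidneys express. It lay at 0 to 169.8 CPM (median 89.2) in Veptp WT and at 0 to 32.3 CPM (median 8.05) in Veptp KO, with a log2 fold change of -2.82 ± 0.56, an unadjusted p of 5.19e-05 and an adjusted p of 0.437 (edgeR). With all 4 groups of the arm in the model the adjusted p was 0.0468, and with genes of at least 1 count 2.3e-11. The 4 highest values, 111, 121, 169.8 and 89.2 CPM, were those of the 4 Veptp WT libraries with low-line names, all of which held Y-linked reads and no more than 1 read of Xist. Its near copy Cyp4a12a shares sequence with it, so that the split of reads between them is uncertain. With Xist as a further term of the model the fold change of Cyp4a12b was -1.46 ± 0.43.

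Sex was unevenly spread in this arm. With a limit of 10 counts for each, so that alone means under 10 counts of the other, 5 of 7 Veptp WT libraries held Y-linked genes alone, 1 held Xist alone and 1 both. Of 6 Veptp KO libraries 1 held Y-linked genes alone, 3 Xist alone and 2 both. Xist gave a log2 fold change of 3.97 ± 1.32 (unadjusted p 0.00727), although its reads and those of its antisense partner Tsix cannot be told apart where the counting is not stated to use strand. The Y-linked demethylase gene Uty gave -1.62 ± 0.71. Of the 5 female-biased kidney genes all had a higher mean in Veptp KO, with a median of 0.79: the amino acid transporter Slc7a12 gave 3.13 ± 1.06 and the prolactin receptor Prlr 2.56 ± 0.86, at unadjusted p of 0.00834 and 0.00762. Of 9 male-biased genes 8 had a lower mean, with a median of -0.40. With Xist in the model the median of the female-biased genes was -0.27, Slc7a12 gave -0.27 ± 0.39 and Prlr -0.15 ± 0.41, and none was left at the unadjusted threshold. Gbp3, an interferon-induced GTPase (1.63 ± 0.58), Gsta4, a glutathione transferase (1.18 ± 0.39), and Slc39a5, a zinc transporter (0.84 ± 0.18), also had their highest values within each name form in libraries with Xist: for Slc39a5 the Veptp KO libraries G_2 and G_3 held 172 and 153 CPM and G_1 and G_4 87.6 and 92.0 CPM, against 58.1 to 77.9 CPM in the Veptp WT libraries of that form. With Xist in the model these 3 genes gave -0.51, 0.044 and 0.45.

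Some of the sex-biased kidney genes, Slco1a1, Cyp2j13, Slc7a12 and Prlr, followed Xist and the Y-linked genes across the libraries that held 1 kind of read alone. Kap, also on the male-biased list, did not: it lay at 9859 CPM in D10, with Xist alone, and at 9363 CPM in E4, with Y-linked reads alone. In the 13 libraries with Y-linked reads alone, the organic anion transporter Slco1a1 lay between 77.3 and 733 CPM, and in the 14 libraries with Xist alone between 0 and 7.5 CPM. The epoxygenase Cyp2j13 lay between 123 and 475 CPM in the first and between 0 and 7.5 CPM in the second. Neither gene overlapped between the 2 sets. Slc7a12 lay between 0.537 and 32.9 CPM in the first and between 141 and 293 CPM in the second, and Prlr between 1.61 and 66.5 and between 140 and 330 CPM. In the 9 libraries with both kinds of reads the values were widely spread, at 12.4 to 371 CPM for Slco1a1 and 9.72 to 208 CPM for Prlr. The ABTAA arm held Y-linked reads alone in 3 of 8 IgG and 2 of 7 ABTAA libraries, and there 8 of 9 male-biased genes had a higher mean in ABTAA with a median of 0.23. The Pdgfb arm held them in 1 library of each group, with both kinds of reads in 2 Pdgfb WT libraries, and 8 of 9 male-biased genes had a lower mean in the libraries labelled Pdgfb KO with a median of -0.77. None of the 9 reached an unadjusted p of 0.05 in any arm with the default filter and terms, whereas with genes of at least 1 count admitted Slco1a1 and Cyp2j13 were called in the ABTAA arm and Cyp4b1 and Cyp2e1 in the Pdgfb arm, the latter pair also with Xist in the model. For these genes the fits were wide: 1, 2 and 2 of the 9 had an interval inside -1 to 1.

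**Figure D3:**
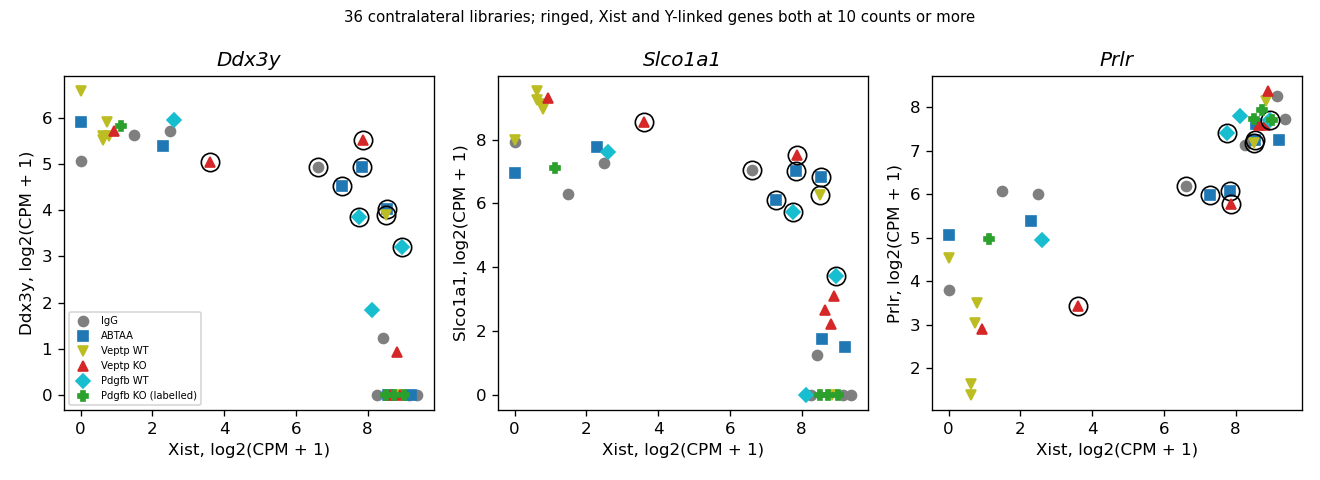
Ddx3y, Slco1a1 and Prlr (vertical axes) against Xist (horizontal axes) in the 36 CL libraries, all as log2(CPM + 1), with 1 symbol a library and rings around the 9 libraries in which Xist and the Y-linked genes both reached 10 counts. Libraries with Xist alone lie at 0 to 7.5 CPM of Slco1a1 and those with Y-linked reads alone at 77.3 to 733 CPM, whatever their group.

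Globin transcripts, which mark blood left in the tissue, were lower in mean in Veptp KO kidneys. Of 5 erythroid genes 4 were testable, all 4 below 0 and at an unadjusted p under 0.05, beside 5.6% of all genes, with a median of -1.22 against -9.7e-05 over all genes. Hba-a2 (chromosome 11, 32296492 to 32297310) lay at 154, 57.0 and 156 CPM in the Veptp WT libraries with plain names and at 33.8 and 31.2 CPM in the Veptp KO libraries of that form. In low-line names it lay at 10.3, 15.4, 9.11 and 5.37 CPM in Veptp WT and 5.53, 4.56, 2.63 and 3.74 CPM in Veptp KO. The groups did not overlap within the first form and overlapped by 1 library of each within the second, and the log2 fold change was -1.54 ± 0.33 (unadjusted p 0.000168, adjusted p 0.437 by edgeR). Hbb-bt gave -1.33 ± 0.42, Hbb-bs -1.11 ± 0.46 and Hba-a1 -0.81 ± 0.34. The 4 genes are 2 pairs of near-identical copies, Hba-a1 with Hba-a2 and Hbb-bs with Hbb-bt, so the split within a pair is uncertain. Low-line names alone gave a median of -0.40 with 0 of 3 testable genes at the unadjusted threshold, plain names -2.04 with 4 of 4, and without the libraries holding both Xist and Y-linked reads the median was -0.82 with 1 of 4. Leaving out the Veptp KO library E7 or B8 left 2 of 4 genes at that threshold, with medians of -0.88 and -1.04.

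The injury transcripts Clu and Spp1 were higher in mean in Veptp KO kidneys, with and without the library B8 that stood apart. Clu, encoding the chaperone clusterin that injured tubules secrete, lay at 226 to 409 CPM (median 267) in Veptp WT and 345 to 1185 CPM (median 422) in Veptp KO. Spp1, encoding osteopontin, lay at 3038, 3777 and 3143 against 4828 and 14860 CPM in plain names and at 1039, 872, 861 and 792 against 991, 1981, 2046 and 1061 CPM in low-line names. The 2 higher values among the latter, in G_2 and G_3, were those of the libraries with Xist reads and few or no Y-linked reads. The groups overlapped for Clu. For Spp1 they were separate in plain names and overlapped in low-line names, where the Veptp KO library G_1 lay below the Veptp WT library G_5. The fold changes were 0.93 ± 0.20 and 1.08 ± 0.24, at unadjusted p of 0.00017 and 0.000279 and adjusted p of 0.437 and 0.495 (edgeR). Library B8 of Veptp KO held the highest Clu, Spp1, Havcr1 (240.5 CPM against at most 30.9 CPM in any Veptp WT library), Vcam1 (156 CPM) and C3 (606 CPM), which are markers of an injured kidney, and both Xist and Y-linked reads. Without B8 the fold changes were 0.61 ± 0.15 for Clu (unadjusted p 0.00056) and 0.71 ± 0.19 for Spp1 (0.00149). With Xist in the model they were 0.94 ± 0.22 for Clu and 0.88 ± 0.28 for Spp1, at unadjusted p of 0.00026 and 0.00443. C3 gave 1.31 ± 0.50 with B8 and 0.26 ± 0.31 without it, and Fn1 0.82 ± 0.33 and 0.57 ± 0.32. The injury list as a whole did not share the direction: of its 10 testable genes 5 were higher and 5 lower, with a median of 0.0066, and Havcr1 in the Veptp KO libraries other than B8 lay at 4.39 to 15.0 CPM.

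**Figure D4:**
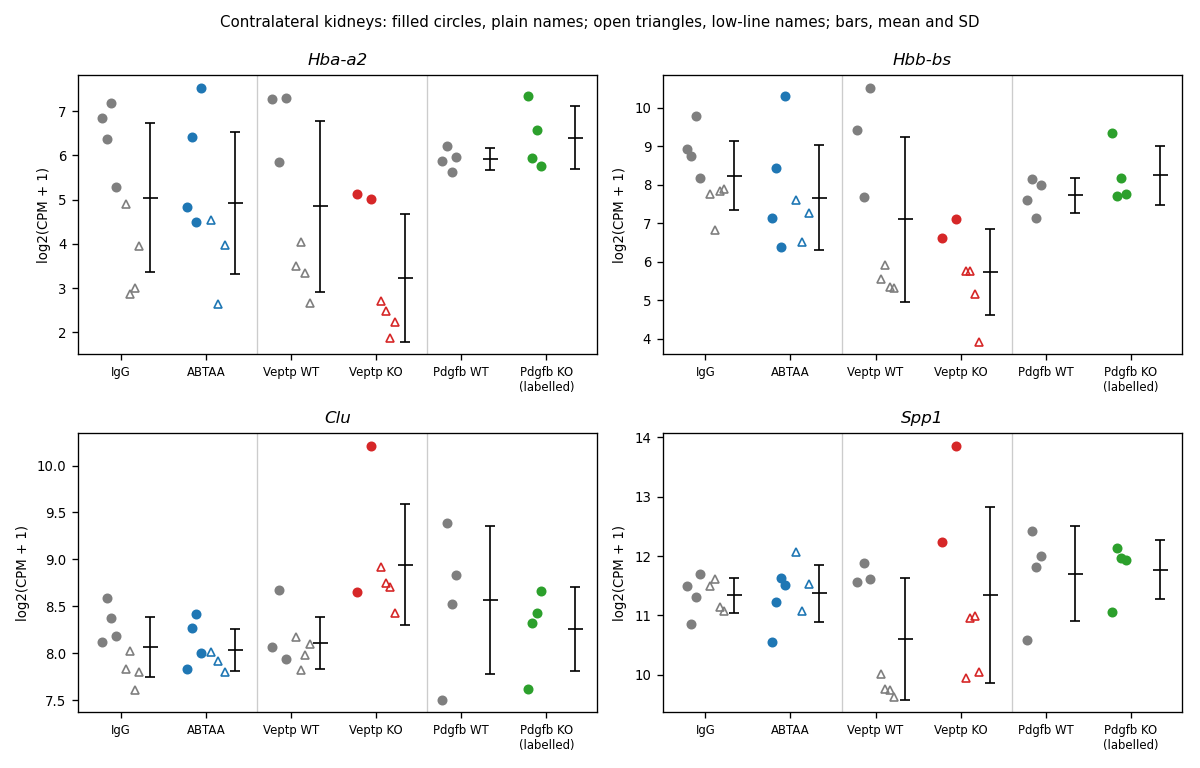
Hba-a2, Hbb-bs, Clu and Spp1 as log2(CPM + 1) (vertical axes) in each of the 36 CL libraries by group (horizontal axis), with filled circles for plain names, open triangles for low-line names, and the mean and SD of each group. In the Veptp arm the mean of Hba-a2 is lower and that of Spp1 higher in Veptp KO within both forms, with overlap in low-line names, and library B8 is the highest point for Clu (1185 CPM) and Spp1.

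Further genes at the head of the Veptp arm were Armc1, whose product sits on mitochondria, cytoplasmic actin (Actg1), the ubiquitin ligase Rnf123, Ubtd1 and the hedgehog ligand Ihh, which the proximal tubule makes. Armc1 was 1 of the 8 genes whose groups did not overlap, at 78.4 to 94.4 CPM (median 79.8) in Veptp WT and 40.1 to 61.3 CPM (median 56.9) in Veptp KO (-0.60 ± 0.14, unadjusted p 0.000288). Actg1 gave 0.42 ± 0.11, Rnf123 -0.69 ± 0.17, Ubtd1 -1.50 ± 0.39 and Ihh 1.66 ± 0.40, with adjusted p between 0.495 and 0.875 (edgeR). Within low-line names Ihh lay at 0, 3.72, 3.25 and 2.15 CPM in Veptp WT and 10.1, 17.3, 8.78 and 7.48 CPM in Veptp KO. That separation rests on few reads and on a gene picked for a low unadjusted p.

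Of the transcripts of the mitochondrial genome 8 of 13 stood at an unadjusted p under 0.05 beside 5.6% of all genes, 7 higher and 1 lower in Veptp KO, and a median of 0.30. Without 1 library the count was between 3 and 9, with 3 without E7 or G_7, 4 without F3 or G_4 and 5 without G_5. They are cut from shared precursor transcripts and so are not independent. mt-Co1, a subunit of cytochrome oxidase, lay at 5359 to 8691 CPM (median 6556) in Veptp WT and 8734 to 10510 CPM (median 10230) in Veptp KO without overlap, if only just, and gave 0.52 ± 0.17 (unadjusted p 0.00591). mt-Co3 was the lower one, at -0.43 ± 0.14. The 23 nuclear subunits of complex I had a median of 0.087 with none at the unadjusted threshold. Without the form of the name in the model 0 of the 13 reached that threshold, without the libraries holding both Xist and Y-linked reads 2 did, and with all 6 CL groups in 1 model 1 did. The 4 library chemistry genes had a median of 0.35 in the same direction, and their part in this result was not tested.

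Cell type markers had higher means in Veptp KO along the nephron, with few at the unadjusted threshold. Of 13 proximal tubule markers 11 were higher (median 0.21), with the organic anion transporter Slc22a8 at 0.75 ± 0.29 and Miox at 0.43 ± 0.16. All 7 markers of the thick ascending limb were higher (median 0.18), with uromodulin (Umod) at 0.43 ± 0.14 and an unadjusted p of 0.00528. In the distal convoluted and connecting tubule the calcium channel Trpv5 gave 0.60 ± 0.24 and the sodium-calcium exchanger Slc8a1 0.52 ± 0.25, and in intercalated cells the proton pump subunit Atp6v0d2 0.35 ± 0.15. The 4 genes listed with library chemistry, Gm42418, AY036118 and the nuclear RNAs Malat1 and Neat1, were all higher in mean too, by 0.32 to 0.41 with a median of 0.35 and Malat1 at an unadjusted p under 0.05 (0.41 ± 0.15). Their part in these means was not tested. Of 11 endothelial markers 9 were higher in mean (median 0.13) and the tight junction gene Cldn5 reached the unadjusted threshold, at 0.63 ± 0.28. In the renin-angiotensin system renin (Ren1) gave 0.54 ± 0.25, whereas the angiotensin-converting enzyme gene Ace gave -0.32 ± 0.13. The antioxidant enzyme Gstm1 gave 0.37 ± 0.11. None of the testable circadian (11 of 15), PPARA (12 of 12), immediate early (6 of 12), heat shock (8 of 12), hypoxia (8 of 11), cell cycle (5 of 11), PDGF (6 of 6) or VEGF genes (6 of 9) reached the unadjusted threshold in this arm. The testable collecting duct (7 of 7 in both arms), podocyte (5 of 6 here and 4 of 6 in the ABTAA arm), metallothionein (5 of 6 in both), lymphocyte and neutrophil (1 of 8 in both) and fat genes (3 of 9 here and 2 of 9 in the ABTAA arm) did not reach it either, and the 5 testable macrophage markers had log2 fold changes between 0.022 and 0.11.

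Pdgfb KO against WT asked whether loss of the ligand in the whole body changes the unobstructed kidney, with the reservation that Pdgfb itself was not lower. Ptprb, here an endothelial gene that was not targeted, was among the genes with the lowest unadjusted p. It lay at 32.8, 42.5, 37.1 and 38.6 CPM in the 4 Pdgfb WT libraries and at 49.4, 72.2, 61.6 and 57.7 CPM in the 4 libraries labelled Pdgfb KO. The groups did not overlap, as for 2.01% of all genes in this arm, and the log2 fold change was 0.65 ± 0.19 (unadjusted p 0.00283, adjusted p 1 by edgeR). Other genes of the angiopoietin and TIE2 list gave 0.68 ± 0.34 for Angpt1, 0.51 ± 0.45 for Angpt2, 0.18 ± 0.27 for Tek and -0.15 ± 0.43 for Tie1, and the 11 testable endothelial markers had a median of 0.069 with none at the unadjusted threshold. The ligand's receptor gene Pdgfrb lay at 11.3, 20.6, 17.9 and 21.2 CPM and 21.1, 14.0, 23.4 and 26.0 CPM, which overlapped (0.31 ± 0.28), and Pdgfra gave 0.0039 ± 0.29. The 7 testable mural and mesenchymal markers had a median of 0.13 with none at the unadjusted threshold, and the 11 testable genes of the study's matrix panel 0.042, all 11 with intervals inside -1 to 1.

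The largest positive log2 fold change among the genes with the lowest unadjusted p was that of Rnase4, a secreted ribonuclease, at 11.3, 14.2, 15.1 and 10.6 CPM in Pdgfb WT and 55.2, 18.6, 38.3 and 18.6 CPM in the libraries labelled Pdgfb KO (1.38 ± 0.36). The coactivator Ncoa1 (0.74 ± 0.21), the mannosyltransferase Alg11 (0.84 ± 0.25) and the splicing factor Srrm2 (0.60 ± 0.18) were also higher in mean. Lower in mean were Ovca2 (-1.0027 ± 0.27), the salt-inducible kinase Sik1 (-1.42 ± 0.39), Prob1 (-0.84 ± 0.24) and the chemokine Ccl25 (-1.16 ± 0.34). Of these 9 genes, Ptprb included, the groups of 8 did not overlap, beside 2.01% of all genes tested in this arm, and those of Srrm2 did. The genes were picked for a low unadjusted p, so their separation is no further support for a difference. Each had an adjusted p of 1 by edgeR.

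Globin transcripts differed in the direction opposite to the Veptp arm, with all 4 testable erythroid genes higher in mean in the libraries labelled Pdgfb KO, all 4 at an unadjusted p under 0.05 beside 2.65% of all genes, and a median of 0.64. Hba-a1 lay at 102, 161, 104 and 112 CPM in Pdgfb WT and 273, 112, 176 and 155 CPM in the libraries labelled Pdgfb KO. Library B10 held the highest value of each of the 4 genes in the arm, and the groups overlapped. Hba-a1 gave 0.60 ± 0.23, Hbb-bt 0.70 ± 0.30, Hba-a2 0.63 ± 0.28 and Hbb-bs 0.65 ± 0.30. Without B10 the median was 0.21 and 0 of 4 genes reached the unadjusted threshold, without A5 1 did, without E4, B5 or E10 2 did, and without the 2 libraries that held both Xist and Y-linked reads it was 0.52, again with 0 of 4. In the ABTAA arm the same 4 genes had a median of -0.30 with 0 at that threshold, and Hbb-bs ranged from 82.6 to 1276 CPM within the ABTAA group alone.

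Single genes of the remaining lists also reached an unadjusted p of 0.05 in the Pdgfb arm. The clock repressor Nr1d1 lay at 28.7, 42.5, 37.1 and 35.7 CPM in Pdgfb WT and 30.6, 27.9, 17.0 and 18.6 CPM in the libraries labelled Pdgfb KO (-0.61 ± 0.24), while the 10 testable clock genes had a median of -0.046. The immediate early gene Klf6 gave 0.50 ± 0.21 without overlap, at 25.6 to 46.3 against 48.9 to 58.6 CPM, in a list with 4 of 6 testable genes higher in mean and a median of 0.29. The calcium buffer Pvalb of the distal convoluted tubule gave 0.54 ± 0.23, while of the 6 testable genes of its list 4 were higher and 2 lower in mean, with a median of 0.13 and Trpv5 at -0.47. Cd74, a chaperone of antigen presentation, gave -0.62 ± 0.28, in a macrophage list with 1 of 3 testable genes higher, 2 lower and a median of -0.13. Markers of tubular injury did not separate the groups: Havcr1 lay at 8.21, 60.5, 17.9 and 63.6 CPM in Pdgfb WT and 7.05, 9.31, 10.6 and 51.1 CPM in the libraries labelled Pdgfb KO, high in F4, B5 and A11 and low in the other 5, and Clu gave -0.40 ± 0.29. The testable proximal tubule (13 of 13), thick ascending limb (7 of 7), PPARA (12 of 12), hypoxia (7 of 11), interferon (7 of 12), heat shock (7 of 12) and mitochondrial DNA genes (13 of 13) had none at the unadjusted threshold, and the intervals of all 13 proximal tubule markers, all 7 of the thick ascending limb and all 23 complex I subunits lay inside -1 to 1.

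Set side by side, the 3 comparisons shared no library. Across the 8501 genes tested in both the ABTAA and the Veptp arm the fold changes had a Spearman correlation of -0.114, across 8457 genes of the ABTAA and Pdgfb arms 0.032, and across 8928 genes of the Veptp and Pdgfb arms 0.05, as descriptions over genes, which are not independent. Of the genes at an unadjusted p under 0.05 in both members of a pair there were 26, 9 and 12, or 5.63% and 5.45% of the first pair's 2 lists, 1.95% and 3.96% of the second's and 2.4% and 5.11% of the third's. In 9, 7 and 5 of these the direction was shared. The shares of the first pair lie near the 5.42% and 5.6% of all genes at that threshold, and most of its 26 genes had opposite directions, so the overlap is no result about the 2 treatments. Ptprb gave -0.081 in ABTAA, -0.44 in Veptp KO and 0.65 in the libraries labelled Pdgfb KO, and Tek -0.18, 0.029 and 0.18.

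**Figure D5:**
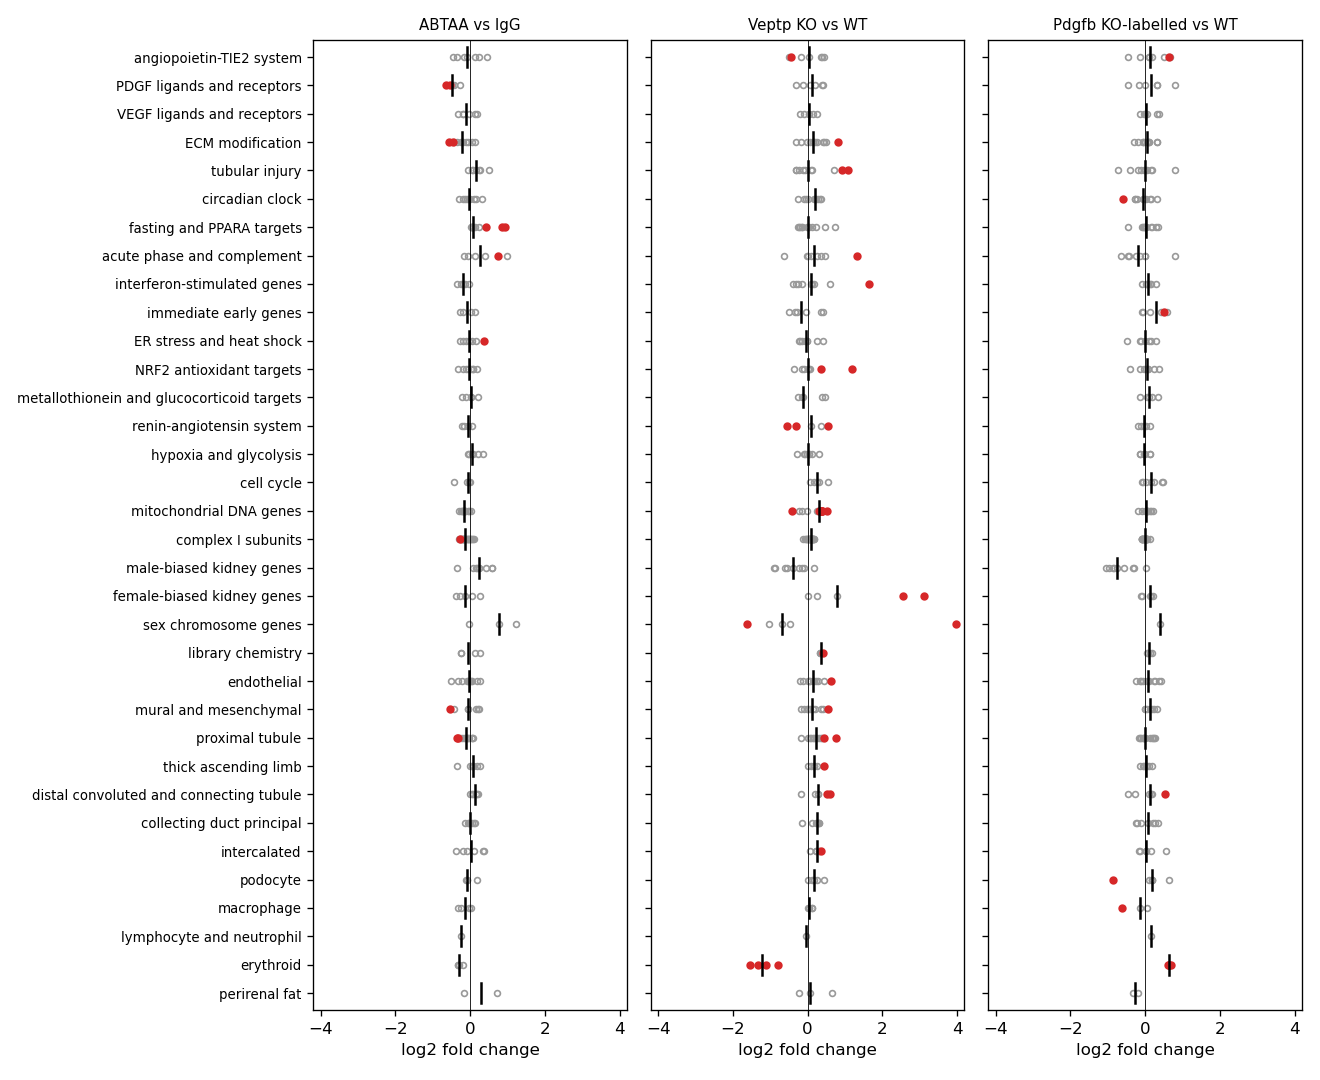
Log2 fold changes (horizontal axis) of the testable members of each gene list (rows) in the 3 CL comparisons, with red points at an unadjusted p under 0.05, open grey points otherwise, and a black bar at the list's median. Erythroid genes lie below 0 in Veptp KO (median -1.22) and above 0 in the libraries labelled Pdgfb KO (median 0.64). In the Veptp arm the sex chromosome and female-biased genes spread most widely. The 9 adrenal markers are not drawn because none was testable.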

How the data were processed

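Reads from quadruplicate wells of each kidney were merged, aligned with STAR (version 2.7.3a) to mm10, deduplicated with UMI-tools (version 1.1.4) and summarised per gene with featureCounts of Subread (version 1.4.6-p5), per the study's methods and the submitters' processing notes. The deposited table holds raw counts of reads for 32245 genes in 75 libraries, not normalised by the authors, and the 36 CL columns were used here. Whether the counting used strand is not given in the sources used here. Gene positions are those of RefSeq for GRCm38.p6, in which 26296 of the 32245 symbols matched.

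Within each arm edgeR (version 4.0.16, R version 4.3.3) kept genes by its default filter per group (8578, 10316 and 9126 genes), scaled libraries by the trimmed mean of M-values (TMM, factors 0.682 to 1.2) and fitted a quasi-likelihood model of group, with the form of the library name as a term in the ABTAA and Veptp arms. Adjusted p are by Benjamini-Hochberg over all genes of a comparison. CPM are counts scaled to 1000000 reads of the library total times its TMM factor within the arm. Intervals are at 95% and cover 1 gene each. The steps were tested on simulated data. Single deleted genes were also compared by an exact permutation test on log2(CPM + 1).

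Genes named are the deleted gene, the 5 with the lowest unadjusted p in each direction where fewer than 5 passed, and of the 35 gene lists the 2 testable members with the lowest unadjusted p. Of the latter, those at an unadjusted p under 0.05 and the TIE2 and PDGF genes are described singly, and the rest as counts. Tek, Cdh5, Pecam1, Tie1, Angpt1, Havcr1, Vcam1, Slco1a1, Cyp2j13 and the other globin genes were named after their values were seen. The members and lists were chosen with earlier results of these data known. Alternatives were DESeq2 (version 1.42.0), the edgeR exact test, other filters (at least 1 count, or a mean count of at least 20), no TMM factor, other sets of libraries, thinning and Xist as a term. Some genes that the rule names are not reported here.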

Additional observations from a re-analysis of the deposited data

Results flagged for a closer look

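In 7 of 152 sets of library values examined (4.61%), 1 library stood apart from the others of its group by Dixon's ratio on log2(CPM + 1), and chance alone gives about 1 in 20. Of these, 3 were library B8 of Veptp KO, which held 1185 CPM of Clu against 344.7 to 483.9 CPM in the other 5, 606 CPM of C3 against 12.9 to 47.4 CPM, and 8734 CPM of mt-Co1 against 10030 to 10510 CPM. In Veptp WT, library A8 held 409 CPM of Clu against 226 to 287 CPM. In Pdgfb WT, library F4 held 28.3 CPM of Sik1 against 15.1 to 15.4 CPM. Among the libraries labelled Pdgfb KO, D10 held 30.3 CPM of Pvalb against 58.6 to 64.6 CPM, and E10 held 23.4 CPM of Pdgfb against 15.3 to 16.3 CPM. What sets these libraries apart was not tested.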

How the results depend on the processing

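Counts of genes at an adjusted p under 0.05 were 0 in each comparison and stayed 0 under most alternatives. Genes with at least 1 count gave 13 in the ABTAA, 58 in the Veptp and 8 in the Pdgfb arm. In the Veptp arm DESeq2 gave 7, all 4 groups of the arm 2, and low-line names alone 1, and in the Pdgfb arm Xist as a term gave 3. Leaving out 1 library gave 0 in the ABTAA arm, 0 to 3 in the Veptp arm (3 without G_3) and 0 in the Pdgfb arm. Counts at an unadjusted p under 0.05 ran from 208 to 1024 in the ABTAA arm (main 465), 152 to 1256 in the Veptp arm (578) and 83 to 675 in the Pdgfb arm (242). The lowest were from the edgeR exact test in the first 2 arms and DESeq2 in the third, and the highest from genes with at least 1 count, where more genes were tested. Without the form of the name they were 231 and 175. Without 1 library they ran from 351 to 746 in the ABTAA arm (746 without F6), 409 to 754 in the Veptp arm and 185 to 453 in the Pdgfb arm (401 without E4, 453 without B10). Without the libraries holding both Xist and Y-linked reads, an alternative chosen after seeing the data, they were 412, 872 and 221. Ptprb in Veptp KO kept its direction, from -0.56 to -0.26 without 1 library (-0.26 without G_6, unadjusted p 0.225), and Pdgfb in the libraries labelled Pdgfb KO from 0.51 to 1.39 (1.39 without B5, unadjusted p 0.00366; 0.51 without E4), and neither passed in any. Pdgfb was not tested with a mean count of at least 20 or after thinning. Cause of these shifts was not tested. No paired analysis was possible because the compared CL groups are different mice. Depth limits genes under about 10 reads a library, Pdgfb included.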

Other observations

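With genes of as little as 1 count admitted, 13 genes passed in the ABTAA arm, 12 of them higher, and some rested on 1 library. Cfd, the adipocyte gene for complement factor D, had 121 of its 210 counts in the ABTAA library E6, and Svs2, a seminal vesicle secretory protein gene, had 31 of 32 counts there. Igkv6-13, an immunoglobulin light chain segment, had 8 of its 19 counts in the IgG library P_2. In the Veptp arm Cfd had 196 of 365 counts in the Veptp KO library G_3, at 172 CPM, and none in the other 5 Veptp KO libraries, against 1.63 to 30.6 CPM in Veptp WT. Without G_3 the arm called 3 genes, all lower in Veptp KO: Cfd, the enolase gene Eno1b and Angptl7. These libraries' share of fat or of other tissue was not tested.

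Smpdl3b, a membrane phosphodiesterase gene below the main filter, passed in 3 of the alternatives of the Veptp arm, with log2 fold changes of -4.37 with all 4 groups of the arm, -4.89 in low-line names alone and -4.45 with genes of at least 1 count, and 55 of its 151 counts lay in the Veptp WT library G_8. In the Pdgfb arm, Xist as a term gave 3 calls, Inmt (-0.90), Cyp2e1 (-1.49) and Cyp4b1 (-1.73), the last 2 on the male-biased list. Their highest counts were all in the Pdgfb WT library E4, the 1 Pdgfb WT library with Y-linked reads alone.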
